A study of Homo sapiens with 4 samples.

Results

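Growth factors of the EGF and PDGF families were followed as RNA in 2 human thyroid cancer cell lines that carried CRABP1 or an empty vector. The 10 genes, chosen by name, were AREG, EREG, HBEGF, TGFA, BTC and NRG1 of the EGF family and PDGFA, PDGFB, PDGFC and PDGFD of the PDGF family, out of 58884 genes in the table. All 10 were found by symbol. FTC-133 is a line from a follicular thyroid carcinoma and 8505C a line from an anaplastic thyroid carcinoma. Each was transfected with an empty vector or with a vector for overexpression of CRABP1, a cytoplasmic protein that binds retinoic acid, and each of the 4 groups had 1 library of total RNA. The labels do not say how the transfected cells were selected or when they were harvested.

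Ligands of the EGF family are made as membrane-anchored precursors and released by proteases, ADAM17 foremost. They bind receptors of the ERBB family: AREG and TGFA act through EGFR, EREG, HBEGF and BTC through EGFR and ERBB4, and NRG1 through ERBB3 and ERBB4. PDGF chains form disulfide-linked dimers that activate PDGFRA and PDGFRB, mostly on mesenchymal cells. PDGFC and PDGFD carry a CUB domain that must be cut off before they are active. EGF is a classical mitogen of thyroid follicular cells.

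Values are TPM, reads per gene length brought to a common total, so that levels of different genes can be compared. As a check of the labels, CRABP1 reached 385 TPM for FTC-133 and 537 TPM for 8505C after transfection with its vector, and it stood at 0 in each line with empty vector. Between 19174557 and 20331464 reads per library were recovered from the steps of the values. With 1 library per group no replicate error exists within a line, so "higher" and "lower" compare libraries. The 95% intervals below (exact, Clopper-Pearson for ratios and Poisson for levels) cover counting error only. Identity markers were partly present. The 5 epithelial genes summed to 171 and 169 TPM in FTC-133, and 8505C had 1604 and 1365 TPM, nearly all from the keratin genes KRT8 and KRT18, at 73.6 TPM or more in each library. KRT19 was at 1.54 TPM or less, EPCAM at 6.13 and 5.87 TPM in FTC-133 and 0.546 TPM or less in 8505C, and CDH1, the epithelial cadherin, at 0.241 TPM or less in FTC-133 and 0 in 8505C. The thyroid factor NKX2-1 was at 44.7 and 17.7 TPM in FTC-133 and 118 and 113 TPM in 8505C, with vector and CRABP1. FOXE1 was at 8.06 and 15.2 TPM in FTC-133 and 0.0570 TPM or less in 8505C. PAX8 was at 100 and 143 TPM in FTC-133 but under 0.25 TPM in 8505C. Thyroglobulin and TSHR were under 1 TPM everywhere. Among markers of other cells, 4 leukocyte genes summed to 0.582 to 56.7 TPM, almost all of it CD14 in 8505C, while CD3E and PTPRC were at or near 0. The 5 endothelial genes summed to 4.57 to 108 TPM, mostly CDH5 in 8505C. The 5 fibroblast genes summed to 640 and 370 TPM in FTC-133 and to 54.5 and 75.6 TPM in 8505C, with vector and CRABP1. Their part in the results was not tested.

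EREG and AREG, epiregulin and amphiregulin, are neighbours on chromosome 4. EREG (ENSG00000124882) spans 74365143 to 74388751 and AREG (ENSG00000109321) 74445134 to 74455009, both on the plus strand (GRCh38, GENCODE 29). Their promoters are shown because these adjacent genes moved in the same direction within each line, and in opposite directions in the 2 lines. The sequences are the bases upstream of the RefSeq start (GRCh38.p14, plus strand, chr4:74364895-74365134 for EREG and chr4:74444886-74445125 for AREG), which overlap no annotated exon. Capitals mark matches to the motifs searched.
EREG: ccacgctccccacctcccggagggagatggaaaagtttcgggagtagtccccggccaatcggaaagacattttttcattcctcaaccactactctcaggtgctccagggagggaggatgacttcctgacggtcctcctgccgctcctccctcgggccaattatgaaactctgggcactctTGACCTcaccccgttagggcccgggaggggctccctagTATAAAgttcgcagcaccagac
AREG: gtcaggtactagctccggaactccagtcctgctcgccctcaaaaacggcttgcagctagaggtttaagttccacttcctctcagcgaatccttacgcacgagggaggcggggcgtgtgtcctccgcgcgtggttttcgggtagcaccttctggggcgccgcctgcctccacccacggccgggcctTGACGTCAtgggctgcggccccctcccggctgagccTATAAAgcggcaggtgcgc

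Both promoters held a TATA box (TATAAA), which begins 32 bases before the start in EREG and 29 bases before it in AREG. Of 35116 RefSeq windows reaching from 250 bases before to 50 bases after a start, 11.5% hold this motif on either strand. The AREG window also held the cyclic AMP response element TGACGTCA, 65 bases before the start, which 1.85% of windows hold. The EREG window held the nuclear receptor half-site AGGTCA, written as its complement TGACCT, 70 bases before the start, as 13.8% of windows do. Neither window held the AP-1 motif TGACTCA, the ATF4 element TGATGNAA, the direct repeat 5 of the half-site, which retinoic acid receptors bind, the NF-kB consensus or a CArG box. These motifs are held by 4.95%, 3.62%, 0.0057%, 5.91% and 1.29% of windows. The GC box GGGCGG, found in 45% of windows, was in the windows of AREG, HBEGF, TGFA, BTC, PDGFA and PDGFD and not in that of EREG. The TATA box was in none of the other members' windows. Overlaps between motifs were allowed, and the table held 7 of the 10 genes, in 11 windows. PDGFB, PDGFC and NRG1 were the other members.

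EREG showed the widest difference of the 9 members measured in FTC-133. Its level was 7.14 TPM with vector and 32.8 TPM with CRABP1 in FTC-133, and 48.5 TPM with vector and 35.9 TPM with CRABP1 in 8505C. The FTC-133 vector library was thus low and the other 3 were high. The TPM ratio of CRABP1 to vector was 4.60 (3.97 to 5.34) in FTC-133 and 0.74 (0.683 to 0.803) in 8505C. The lines lay far apart with vector, where 8505C was 6.80-fold higher (5.90 to 7.87), and closer together with CRABP1, where the ratio was 1.10 (1.004 to 1.20), an interval that still left out 1.

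AREG followed the same order of libraries at lower levels. It was at 6.49 and 11.4 TPM in FTC-133 and at 17.4 and 12.5 TPM in 8505C, with vector and CRABP1. The ratio was 1.76 (1.26 to 2.48) in FTC-133, from about 58 and 99 reads, and 0.715 (0.550 to 0.925) in 8505C. The lines were apart with vector (8505C 2.69-fold higher, 1.97 to 3.72), while with CRABP1 the ratio was 1.09 with an interval that included 1 (0.822 to 1.45).

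TGFA, transforming growth factor alpha, was a ligand of FTC-133 above all. It was at 58.9 and 34.2 TPM in FTC-133 and at 7.96 and 8.38 TPM in 8505C, with vector and CRABP1. Both FTC-133 libraries were above both 8505C libraries. With CRABP1 it was 1.72-fold lower in FTC-133 (1.59 to 1.87), while in 8505C the ratio was 1.05 (0.864 to 1.28). Its gene lies on the minus strand of chromosome 2, from 70447280 to 70554193.

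NRG1, neuregulin 1, went the opposite way to EREG and AREG in both lines. Its level was 13.4 TPM with vector and 8.73 TPM with CRABP1 in FTC-133, and 3.07 and 4.12 TPM in 8505C. With CRABP1 it was 1.53-fold lower in the FTC-133 pair (1.37 to 1.71), while the 8505C pair was 1.34-fold higher (1.10 to 1.64). The gene lies on chromosome 8, where genes that overlap it had at most 1.23 TPM.

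HBEGF, heparin-binding EGF-like growth factor, varied least of the well-read ligands. It was at 39.9 and 35.6 TPM in FTC-133 and at 47.1 and 48.3 TPM in 8505C, with vector and CRABP1. The ratio was 0.892 in FTC-133 (0.796 to 0.999) and 1.02 in 8505C (0.923 to 1.14). BTC, betacellulin, was low in every library, at 2.84 and 2.29 TPM in FTC-133 and 4.52 and 3.64 TPM in 8505C. Its ratios of 0.797 (0.494 to 1.28) and 0.802 (0.546 to 1.17) could not be told from 1 at 34 to 65 reads. HBEGF lies on chromosome 5 (140332843 to 140346631, minus strand) and BTC on chromosome 4 (74744759 to 74794686, minus strand).

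**Figure D1:**
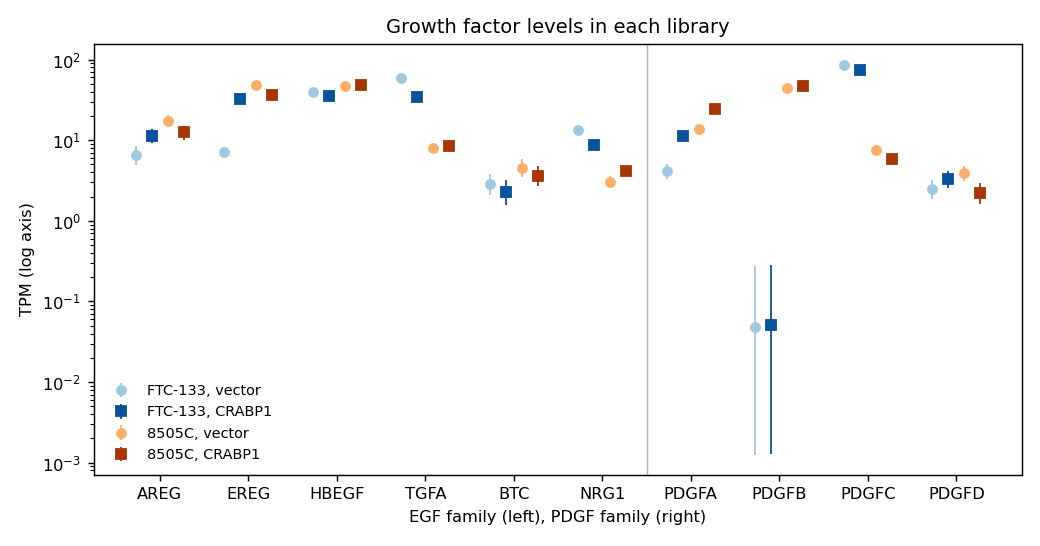
TPM of each growth factor (log axis) in the 4 libraries, 1 per group; bars are 95% Poisson intervals of the reads. EREG is low only in FTC-133 with vector (7.14 TPM), and PDGFB, from 1 read per library, is near 0.05 TPM in FTC-133 against 44.5 and 47.4 TPM in 8505C.

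PDGFA, the chain of the PDGF-AA dimer, was the single member that was higher with CRABP1 in both lines by its counting interval. Its level was 4.12 and 11.3 TPM in FTC-133 and 13.8 and 24.5 TPM in 8505C, with vector and CRABP1. The ratio was 2.74 (2.15 to 3.52) in FTC-133 and 1.77 (1.53 to 2.05) in 8505C. The 8505C library with vector still lay above the FTC-133 library with CRABP1. The gene lies on chromosome 7, from 497258 to 520296 on the minus strand.

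PDGFB, the chain of PDGF-BB, was read in 8505C alone beyond a trace. It had 1 read in each FTC-133 library (0.0488 and 0.0504 TPM) and 852 and 904 reads in 8505C (44.5 and 47.4 TPM), with vector and CRABP1. The ratio of the lines was 912 with vector (163 to 36057) and 941 with CRABP1 (168 to 37193). Within 8505C the ratio of CRABP1 to vector was 1.06, with an interval that included 1 (0.968 to 1.17). PDGFB lies on chromosome 22, from 39223359 to 39244751 on the minus strand.

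PDGFC, a chain with a CUB domain, had the reverse distribution. It was at 86.0 and 73.3 TPM in FTC-133 and at 7.60 and 5.82 TPM in 8505C, with vector and CRABP1. With CRABP1 it was lower in both lines, 1.17-fold in FTC-133 (1.11 to 1.24) and 1.31-fold in 8505C (1.06 to 1.61). PDGFD, the other chain with a CUB domain, was low, at 2.46 and 3.29 TPM in FTC-133 and 3.87 and 2.22 TPM in 8505C. Its ratio was 1.34 in FTC-133 (0.935 to 1.93) and 0.573 in 8505C (0.393 to 0.827). PDGFC lies on chromosome 4 (156760454 to 156971394) and PDGFD on chromosome 11 (103907186 to 104164379), both on the minus strand. An antisense gene that overlaps PDGFC was at 3.44 TPM in FTC-133 with vector and at 0 in the other libraries; the strand setting of the counting is not given in the sources used here.

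In FTC-133 with vector the order of levels ran from PDGFC through TGFA, HBEGF and NRG1 to EREG. The next neighbours, EREG and AREG, AREG and PDGFA, PDGFA and BTC, and BTC and PDGFD, had overlapping counting intervals. With CRABP1 EREG was level with HBEGF and TGFA in FTC-133: the intervals of neighbours among these 3 genes overlapped. In 8505C EREG, HBEGF and PDGFB were the highest with vector, with overlapping neighbours, and HBEGF and PDGFB with CRABP1. Among protein-coding genes, ranked from the highest TPM, EREG moved from rank 9739 to 4840 in FTC-133 and from 3060 to 4152 in 8505C. PDGFA moved from rank 10846 to 8746 and from 7496 to 5535, and PDGFC, the highest member, stood at 1625 and 2060 in FTC-133.

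The summed level of the 6 EGF family ligands differed less between libraries than its makeup. The sum was 129 and 125 TPM in FTC-133 and 129 and 113 TPM in 8505C, with vector and CRABP1. It leaves out EGF, EPGN, NRG2, NRG3 and NRG4 of the same family, so the sum and the shares hold for the 6 chosen ligands only. In FTC-133 TGFA made up 45.8% of it with vector and 27.4% with CRABP1, and EREG 5.55% and 26.2%. In 8505C EREG made up 37.7% and 31.8% and HBEGF 36.7% and 42.8%. Grouped by receptor, EREG, HBEGF and BTC held 38.8% of the sum in FTC-133 with vector, 56.5% with CRABP1, and 77.9% in both 8505C libraries. AREG and TGFA held 50.8% and 36.5% in FTC-133, against 19.7% and 18.5% in 8505C. These 2 groups share EGFR and differ by ERBB4, whose RNA was under 0.2 TPM in every library. Receptor use was not measured. These shares are of RNA, 1 library each, and say nothing of secreted protein.

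Of the PDGF sum, 92.6 and 87.9 TPM in FTC-133, PDGFC made up 92.8% with vector and 83.4% with CRABP1. In 8505C, where the sum was 69.8 and 79.9 TPM, PDGFB made up 63.8% and 59.3%. PDGFA had a larger share with CRABP1 in both lines, 4.45% and 12.8% for FTC-133, then 19.8% and 30.7% for 8505C.

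**Figure D2:**
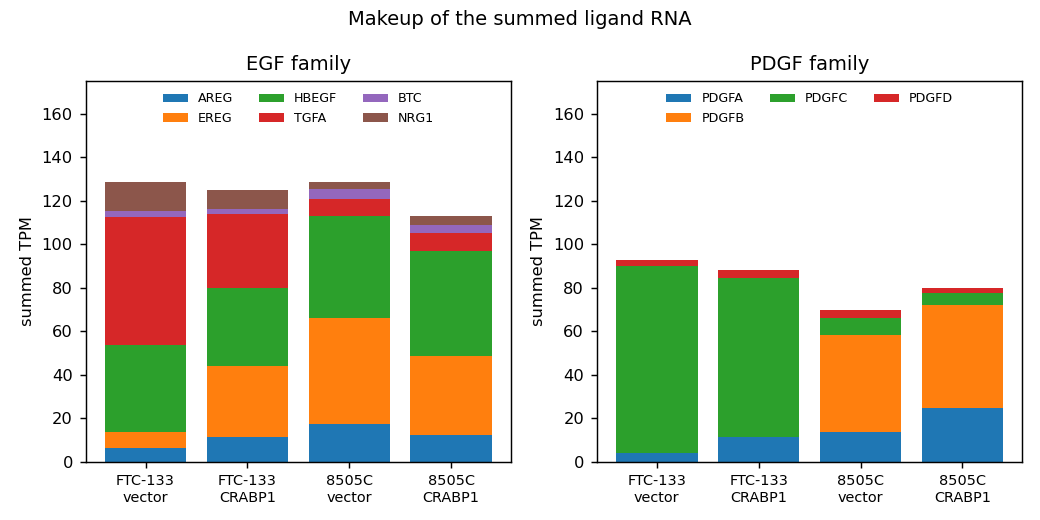
Summed TPM of the 6 EGF family members (left) and the 4 PDGF family members (right) in each library, stacked by gene. The sums of the 6 EGF family members are 129, 125, 129 and 113 TPM from left to right. The TGFA part is large in FTC-133 with vector and the EREG part is small there.

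Members were called by a 2-fold rule on TPM plus 1, among genes whose mean over the pair reached 1 TPM. In FTC-133 2 of 9 measured members passed, EREG and PDGFA, both higher, and PDGFB was not measured. Of all 19899 genes 10.9% passed, 6.02% higher and 4.92% lower. Of 12763 protein-coding genes with 20 reads or more 3.53% passed, 2.06% higher and 1.47% lower. In 8505C 0 of 10 members passed. There 7.77% of all genes did (3.7% higher, 4.07% lower) and 0.733% of the protein-coding genes (0.233% higher, 0.5% lower). The median log2 ratio of the members was -0.16 in FTC-133 and -0.11 in 8505C, against 0.06 and 0.02 over all genes. The members went both ways in each line: 4 of 9 were higher in FTC-133 and 5 of 10 in 8505C.

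Counting intervals that leave out 1 are common at this depth. In FTC-133 7 of 9 members had one, 3 above 1 and 4 below, as did 56% of the protein-coding genes (33.9% above, 22% below). In 8505C 6 of 10 members had one, 2 above and 4 below, as did 39.4% of genes (23.3% above, 16.1% below). Over both lines, EREG and AREG were the 2 of 9 members above 1 in FTC-133 and below 1 in 8505C, as were 5.89% of 11446 protein-coding genes. NRG1 was the 1 with the reverse pattern (6.13% of genes), PDGFA was above 1 in both (9.08%) and PDGFC below 1 in both (4.46%).

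**Figure D3:**
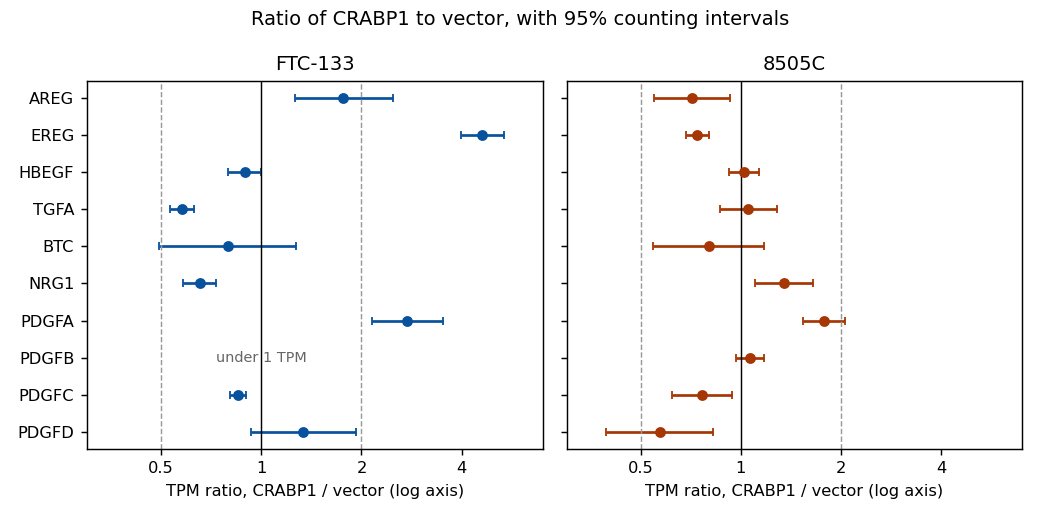
TPM ratio of CRABP1 to vector (log axis) for each growth factor in FTC-133 (left) and 8505C (right), with 95% Clopper-Pearson intervals; dashed lines mark 2-fold. EREG (4.60) and PDGFA (2.74) lie beyond 2-fold in FTC-133, and all members lie within it in 8505C.

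With the lines as pairs, limma found no member that changed with transfection over both lines. PDGFA had a mean log2 difference of 1.02 (SE 0.19, higher in 2 of 2 lines, unadjusted p = 0.00738, adjusted p = 0.920) and was the 1 member of 10 with an unadjusted p under 0.05, where 4.73% of genes had one. Among all 19513 genes tested 0.00512% passed at an adjusted p under 0.05, which was 1 gene, CRABP1 itself. The mean log2 difference of EREG was 0.82 (SE 0.66, adjusted p = 0.921), made of a log2 ratio of 2.05 in FTC-133 and -0.42 in 8505C. This fit has 1 residual degree of freedom, which is how far the CRABP1 ratio differs between the 2 lines. Opposite ratios, as for EREG, therefore widen the SE. The comparison of the lines below uses the same fit, so the same holds there. Nothing says that the libraries came from separate cultures, so technical variation between the 4 libraries cannot be told apart from a difference between the lines.

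**Figure D4:**
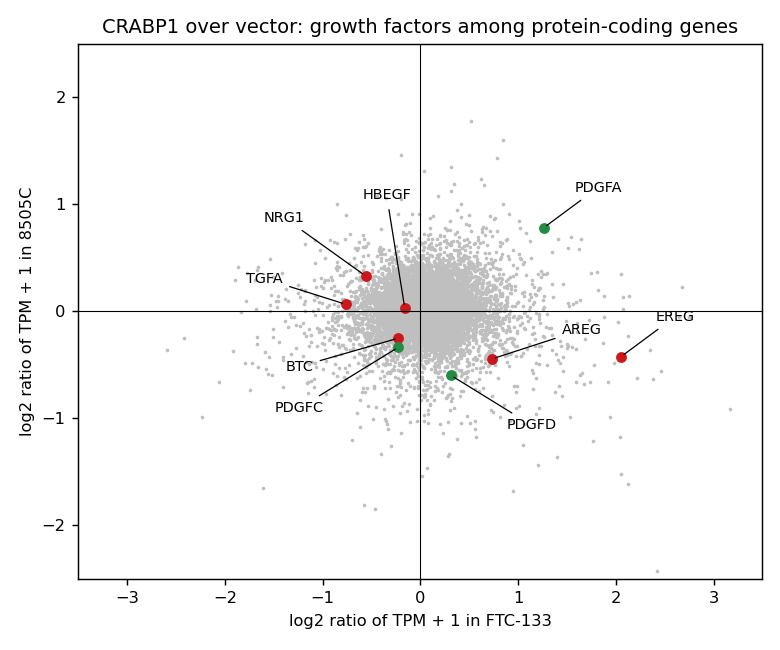
Log2 ratio of TPM + 1, CRABP1 over vector, in FTC-133 (x) and 8505C (y) for 11445 protein-coding genes, each with 20 reads or more per pair (grey; CRABP1 left out, 4 genes lie outside the axes) and 9 growth factors (red EGF family, green PDGF family). PDGFA lies at 1.26 and 0.78, and EREG at 2.05 and -0.42.

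Between the lines, 5 of 10 members differed by limma with transfection as a term, where 35.2% of all genes did (13% higher in 8505C and 22.2% lower, and 49% at an unadjusted p under 0.05). PDGFB was higher in 8505C by a log2 difference of 5.48 (SE 0.18, adjusted p = 0.00336 by limma), a size that depends on the pseudocount since FTC-133 had 1 read per library. PDGFA was also higher in 8505C (log2 difference 1.30, SE 0.19, adjusted p = 0.0193 by limma). Lower in 8505C were PDGFC (-3.39, SE 0.12, adjusted p = 0.00336 by limma), TGFA (-2.33, SE 0.25, adjusted p = 0.0113) and NRG1 (-1.37, SE 0.29, adjusted p = 0.0387). Each of the 5 had the same direction with vector and with CRABP1: TGFA was 7.40-fold lower in 8505C with vector (6.39 to 8.61) and 4.08-fold lower with CRABP1 (3.51 to 4.76), and PDGFC 11.3-fold (9.85 to 13.1) and 12.6-fold lower (10.8 to 14.9). EREG (1.37, SE 0.66, adjusted p = 0.185) did not pass, nor did AREG, HBEGF, BTC and PDGFD, whose adjusted p by limma lay between 0.10 and 0.934. The call of NRG1 was lost with median-ratio scaling (adjusted p = 0.0535), without mitochondrial genes (0.0606), without a trend (0.0738) and without a filter (0.119). That of PDGFA was lost without the transfection term (0.119) and without a filter (0.0763), where TGFA was lost too (0.0626).

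The genes around EREG and AREG include the CXC chemokine cluster. Of 19 protein-coding genes within 1 Mb of the EREG start, a window chosen after the values were seen, 13 were measured in FTC-133. Of these 13, which include EREG and AREG, 10 were higher with CRABP1, 7 by at least 2-fold. Over all genes 57.8% were higher in FTC-133 and 6.02% were higher by 2-fold. Besides EREG the 7 genes of the window past 2-fold were CXCL8 (log2 ratio 3.17), CXCL2 (2.12), CXCL1 (2.04), CXCL3 (1.94), CXCL6 (1.68) and CXCL5 (1.60), which encode neutrophil-attracting chemokines. The median log2 ratio was 1.60 in FTC-133, and -0.42 over the 11 genes measured in 8505C, where the median is the value of EREG itself. Of these 11, which also include AREG, 10 were lower, CXCL2 (-1.62) and CXCL1 (-1.17) by 2-fold. Over all genes 54.7% were higher in 8505C, and 4.07% were lower by 2-fold. EPGN, another ligand of EGFR and the nearest gene upstream of EREG, had log2 ratios of -0.40 and 0.28, opposite in sign to EREG and AREG, with ratio intervals that included 1. BTC, 380 kb downstream of EREG, had -0.22 and -0.25. PF4, a CXC chemokine of platelets in the same cluster, was at 2.74 and 0.941 TPM in FTC-133 (log2 ratio -0.94, with a ratio interval that included 1) and at 0 in 8505C. PF4V1, also in the window, went the opposite way to PF4, at 5.19 and 9.69 TPM in FTC-133 (log2 ratio 0.79). MTHFD2L had a log2 ratio of 0.14 there. The ratio intervals of both included 1 (0.953 to 3.76 and 0.963 to 1.29). In FTC-133 the 6 chemokines named first, EREG and AREG were thus higher with CRABP1 by their intervals. PF4, EPGN and BTC had log2 ratios below 0, and PF4V1 and MTHFD2L above 0, all with intervals that included 1.

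**Figure D5:**
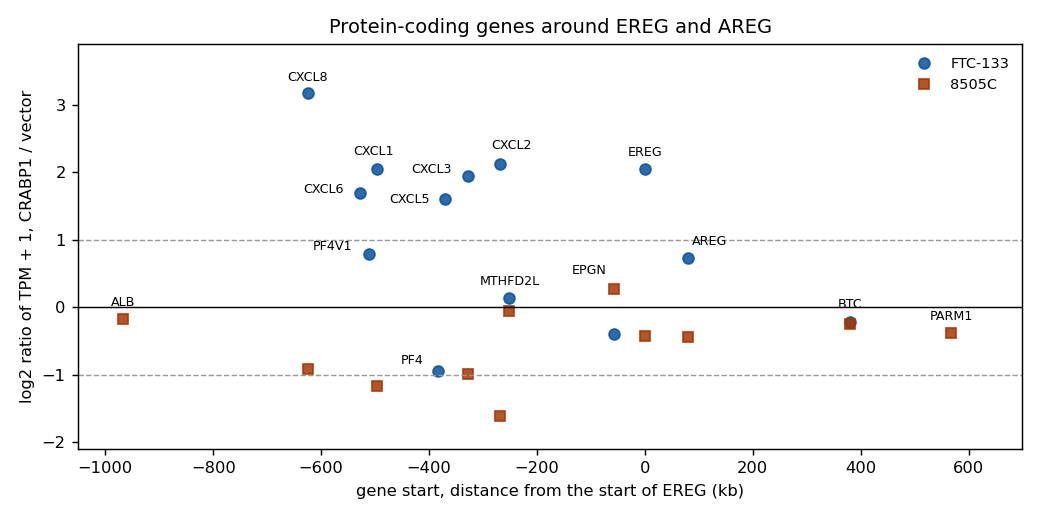
Log2 ratio of TPM + 1, CRABP1 over vector, for protein-coding genes whose mean reached 1 TPM, against the distance of their start from that of EREG in kb; circles FTC-133, squares 8505C, dashed lines 2-fold. EREG, AREG and the CXCL genes drawn lie above 0 in FTC-133 and below 0 in 8505C, where CXCL5 and CXCL6 are listed at 0 TPM and not drawn.

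Genes with the most similar profile were sought for the 3 members with the highest mean TPM, PDGFC (43.2), HBEGF (42.7) and EREG (31.1). Likeness was the distance between log2 values of TPM + 1, each centred on its gene's mean over the 4 libraries, among 12922 protein-coding genes. For EREG the nearest were CASP1, the protease that activates interleukin-1 beta, at a distance of 0.412, PGGHG (0.587) and CACNG8 (0.610). CASP1 was at 4.42 and 19.0 TPM in FTC-133 and 32.6 and 31.3 TPM in 8505C, low in the same library as EREG. For PDGFC they were HIP1 (0.184), SORL1 (0.197) and EEF1A2 (0.210), and for HBEGF SKP1 (0.00870), HNRNPA1L3 (0.0232) and SMG8 (0.0298). With 4 libraries such likeness is a description only.

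The list of other ligands held EGF, EPGN, NRG2, NRG3 and NRG4 of the EGF family. It also held VEGFA, VEGFB, VEGFC, VEGFD and PGF of the VEGF family, so its counts mix families. In this list 0 of 8 genes measured in FTC-133 and 0 of 6 in 8505C passed 2-fold, with medians of -0.03 and -0.09. Of all genes 10.9% and 7.77% passed. EGF itself was at 5.35 and 2.59 TPM in FTC-133 (2.07-fold lower, 1.59 to 2.71, log2 ratio of TPM + 1 of -0.82) and under 0.3 TPM in 8505C. NRG3 was at 3.11 and 5.51 TPM in FTC-133 (1.78-fold higher, 1.35 to 2.34) and listed at 0 in 8505C. VEGFB, of the related VEGF family, had log2 ratios of 0.18 and -0.27.

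Receptor RNA was present for EGFR and nearly absent for PDGFRA. EGFR was at 83.1 and 98.3 TPM in FTC-133 and 125 and 129 TPM in 8505C, and PDGFRA was at 0.212 TPM or less throughout. PDGFRB was at 9.60 and 18.5 TPM in FTC-133, a ratio of 1.92 (1.69 to 2.19), and at 2.48 and 2.74 TPM in 8505C. ERBB2, the co-receptor that binds no ligand, had log2 ratios of -0.14 and -0.10. ERBB3, a receptor of NRG1, was under 0.3 TPM in FTC-133 and at 9.46 and 9.97 TPM in 8505C, while ERBB4 was under 0.2 TPM in every library. The neuropilins NRP1 and NRP2 had log2 ratios of 0.03 and -0.27 in FTC-133, and NRP1 was 1.46-fold lower with CRABP1 in 8505C (1.33 to 1.60). Of 6 receptors and coreceptors measured in each line, 0 passed 2-fold, against 10.9% of all genes in FTC-133 and 7.77% in 8505C.

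Among proteases that release or activate the ligands, and their inhibitor TIMP3, 1 of 12 measured passed 2-fold in FTC-133. It was ST14, matriptase, which can activate PDGFD, at 2.32 and 0.506 TPM (log2 ratio -1.14), levels near the filter of 1 TPM. Of all genes 10.9% passed in FTC-133 and 7.77% in 8505C. In 8505C 0 of 11 passed, and ADAM12 was 1.58-fold lower (1.34 to 1.87). TIMP3, which inhibits ADAM17, was 1.41-fold higher in FTC-133 (1.36 to 1.47) and 1.32-fold lower in 8505C (1.19 to 1.47). PLAT, tissue plasminogen activator, which cleaves PDGFC, was at 68.0 and 57.0 TPM in FTC-133 and 558 and 481 TPM in 8505C. PLAU, urokinase, of the same list was at 1507 and 1701 TPM in FTC-133 and 1846 and 1567 TPM in 8505C. ADAM17 was at 40.3 and 37.8 TPM in FTC-133 and at 18.2 TPM or less in 8505C.

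Of 9 signal adaptors 0 passed 2-fold in either line, where 10.9% of all genes did in FTC-133 and 7.77% in 8505C. PLCG1, a phospholipase recruited by both receptor families, had log2 ratios of 0.39 and 0.04, CRK -0.29 and -0.18, and SHC1 0.15 and -0.15. Of 10 genes that restrain or turn over the receptors, 1 passed in FTC-133 and 0 in 8505C, against the same shares of all genes. LRIG1, a membrane protein that promotes ERBB degradation, was at 4.81 and 1.48 TPM in FTC-133 (3.24-fold lower, 2.39 to 4.47) and at 9.59 and 11.2 TPM in 8505C. CBLB, a ubiquitin ligase, was 1.64-fold higher in FTC-133 (1.52 to 1.77), and LRIG3 had log2 ratios of 0.33 and -0.40.

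Of genes that growth factor signalling is known to induce, 14 of 19 (73.7%) were higher in FTC-133, against 57.8% of all genes. In 8505C 11 of 19 (57.9%) were higher, near the 54.7% of all genes. The medians were 0.26 and 0.09, and 1 gene passed 2-fold in FTC-133 and 0 in 8505C, against 10.9% and 7.77% of all genes. The gene that passed was LIF, a cytokine of the interleukin-6 family, at 84.0 and 173 TPM in FTC-133, with a log2 ratio of -0.42 in 8505C. IER3, an early response gene, had log2 ratios of 0.99 and -0.33, and the early growth response factor EGR1 0.28 and 0.46. SPHK1, a sphingosine kinase, had 0.22 and -0.44. By limma over both lines, 0 genes of these lists passed, and 3 of the 19 output genes and 0 of the ligand, receptor, protease, adaptor and inhibitor lists other than the members had an unadjusted p under 0.05. Over all genes 4.73% had one.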

How the data were processed

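RNA was sequenced in 4 libraries, 1 per group. The authors deposited TPM for each gene; the submitters' processing notes name FastQC, Trimmomatic (0.38), the counter featureCounts (2.0.0) and the build GRCh38. No aligner, annotation or strand option is given in the sources used here. Symbols came from a name table (58472 of 58884 identifiers). TPM times the union exon length of GENCODE 29 gave reads: between 90.6% and 91.7% of values up to 50 reads fell within 0.02 of a whole number. Of the members' 40 values 11 did, so the others' reads are approximate. Ratios used log2 of TPM plus 1 over genes whose mean reached 1 TPM; folds with intervals are plain TPM ratios. limma 3.58.1 (R 4.3.3) with a trend was fitted on all 4 libraries, with Benjamini-Hochberg adjustment at 0.05 and two-sided p-values. It was tested on simulated data in which the changed genes rose equally in both lines. That setting does not cover genes whose CRABP1 ratio differs between the lines. Cell line was the pairing term for transfection, since both transfections were made in the same line. Ratios and intervals were computed in SciPy 1.17.1 and NumPy 2.4.6 (Python 3.11.15).

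Members, lists and rules were chosen with earlier results of these data known. Named were all members, from each pathway list the genes past 2-fold and the 2 largest ratios per line, and the nearest profiles; marker lists are given by sums and defining genes. EGFR, ERBB3, ERBB4, PDGFRA, PLAT, PLAU, ADAM17, the markers, the motifs and the genes around EREG were named or chosen after their values were seen. As alternatives, the filter was dropped or raised to 5 TPM, the pseudocount set to 0.1, libraries rescaled by median ratios, mitochondrial genes removed, the threshold set to 1.5-fold, and the limma trend or second term dropped. 1 leukocyte marker is not reported here.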

Additional observations from a re-analysis of the deposited data

Results flagged for a closer look

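For 3 members the libraries with CRABP1 differed from those with vector in opposite directions in the 2 lines, each beyond counting error. The log2 ratio of TPM + 1 was 2.05 in FTC-133 and -0.42 in 8505C for EREG, 0.73 and -0.44 for AREG, and -0.56 and 0.33 for NRG1. With 1 library per group the difference between the lines was not tested.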

How the results depend on the processing

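The members' counts past 2-fold, 2 in FTC-133 and 0 in 8505C, were the same under every alternative except a 1.5-fold threshold. With that threshold 4 of 9 members passed in FTC-133 (3 higher, 1 lower), against 4526 of all 19899 genes tested. In 8505C 2 of 10 members passed (1 higher, 1 lower), against 2638 of 17561 genes. All 90 alternative values of single members stayed within counting error of their main value. The counts over all genes in FTC-133 and 8505C moved more, from 2177 of 19899 and 1364 of 17561 genes tested in the main setting. The number tested moved with the filter too. They were 591 of 12585 and 218 of 11434 at a mean of at least 5 TPM. Without a filter they were 3218 of 32966 and 2279 of 29198. With a pseudocount of 0.1 they were 3157 and 1884 of the genes of the main setting. Without mitochondrial genes they were 2978 of 21608 and 1979 of 19001, and with median-ratio scaling 2063 of 19605 and 1479 of 17872. No member passed limma for transfection under any of the 7 alternatives run, the fit with no replicate block (0 members, 0 genes) included; PDGFA had an adjusted p of 0.844 or more by limma. The 1 gene that passed overall was lost (0 genes) in all of them but the 5 TPM filter. Between the lines, 2 members and 1182 of 36025 genes passed without a filter, against 5 members and 6877 of 19513 genes in the main setting. With the other alternatives 4 or 5 members passed. Of those 6877 genes 2542 were higher and 4335 lower in 8505C, and with median-ratio scaling 3170 and 3440, a scaling that moves the lines' log2 ratios by 0.14 with vector and 0.18 with CRABP1. Leaving out a library leaves no residual degree of freedom and so no test; the ratio of each line is then the value. Depth limits BTC, PDGFD and AREG, at 34 to 146 reads. It also limits PDGFA in FTC-133 with vector, at 93 reads, and PDGFB in FTC-133, at 1 read per library.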
